A study of Mus musculus with 14 samples.

Results

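Rab proteins are small GTPases that mark the membranes of the cell and direct vesicle traffic between them. An exchange factor loads a Rab with GTP, the active form recruits effectors that move, tether or fuse vesicles, and a GTPase-activating protein switches it off, while prenylation and GDP dissociation inhibitors let it cycle between membrane and cytosol. In blood cells Rabs are best known for the release of granules by neutrophils and mast cells, for the maturation of phagosomes and for the handling of antigen by dendritic cells. The genes described here are those whose symbol is Rab, a number and at most 1 further letter, which leaves out the effectors and exchange factors. They were 57 of the 20284 genes that could be named on the larger of the study's array designs, measured by 80 probes, of which 19 genes had several probes and 38 had 1. The RefSeq table holds 59 genes of this pattern, and Rab36 and Rab44 had no matched probe.

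RNA of sorted C57BL/6 mouse cells was measured on single-colour Agilent arrays, 2 arrays in each of 7 groups. Bone marrow gave wild-type (WT) granulocyte-monocyte progenitors (GMP), GMP of genotype IRF8KO, WT common dendritic cell progenitors (CDP), WT neutrophils (Neu) and the WT precursors (pre-cDC) that give rise to classical dendritic cells. Spleen gave WT CD8+ classical dendritic cells (cDC) and WT CD4+ cDC. IRF8 is a transcription factor needed for monocytes and several dendritic cell types. The CD4+ cDC were isolated with magnetic beads only, the neutrophils by flow sorting only, and the other groups by both. The sample titles number the 2 arrays of a group exp1 and exp2, but nothing in the labels ties them to different animals. The p-values here reflect how far the arrays of a group spread, and that spread may be technical. In sorted populations, fewer cells of a type and less RNA per cell cannot be told apart.

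A level here is the log2 of the processed signal relative to the array's own 75th percentile, so 0 is the level of that percentile. The percentile itself was 448 to 516 signal units on the 4 GMP arrays, 77.4 and 77.5 in CDP, 147 and 164 in pre-cDC, 137 and 151 in Neu, 211 and 281 in CD8+ cDC and 566 and 661 in CD4+ cDC. The CD4+ cDC arrays are of a smaller design and entered no test. WT and IRF8KO GMP shared 1 slide, and CD8+ cDC and Neu shared another, while CDP, pre-cDC and CD4+ cDC each had a slide of their own, so for comparisons across slides the slide and the group cannot be told apart. The Irf8 probe read 6.22 and 6.17 on the arrays labelled IRF8KO and 4.79 and 4.87 in WT GMP. It was thus higher in the arrays labelled IRF8KO, and because the place of the probe in the gene is unknown here it cannot check the deletion. Defining markers matched the labels in part. The 5 GMP markers summed to 1335 to 1371 in CDP and 148 to 149 in pre-cDC, against 1797 to 1866 in WT GMP. The 5 CD8+ cDC markers were all well above background in CD8+ cDC. The CD8+ and CD4+ cDC arrays also carried erythroid markers, with a summed level of 182 to 406 against 7.37 to 7.72 in Neu. On the CD4+ cDC arrays all 4 B cell, all 4 T and NK cell and all 4 macrophage markers were well above background. The lowest level that passed as such was -6.05 and -5.63 there, against -3.67 and -3.93 in CD8+ cDC. The macrophage sum was 24.1 to 49.6, against 14.5 to 15.5 in CD8+ cDC. The T and NK cell sum was 1.04 to 1.52, against 3.68 to 3.80 in CD8+ cDC. The B cell sum was 10.47 to 11.32, against 6.76 to 6.91 in CD8+ cDC and 11.15 to 11.48 in WT GMP. The array designs differ, so these sums are not on a common scale. Carry-over of B, T or NK cells was not tested.

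Rab genes were broadly expressed. On all 14 arrays 37 of the 57 genes were well above background, a mark set by the scanner software, and 2, Rab39b and Rab9b, were so on none. The number well above background on both arrays of a group ran from 41 in pre-cDC and Neu to 50 in both splenic cDC. Among the 53 genes detected in at least 1 of the 6 groups of the larger design, neutrophils held the highest level for 28 genes, CD8+ cDC for 9, IRF8KO GMP for 6, CDP for 5, WT GMP for 4 and pre-cDC for 1. Over all detected genes neutrophils held the highest level for 33%, CD8+ cDC for 12.5%, IRF8KO GMP for 9.78%, CDP for 27.1%, WT GMP for 9.24% and pre-cDC for 8.4%. The neutrophil count was 24 to 29 of 53 under the 6 other scalings tried, against 26.3% to 34.4% of all detected genes. The span between the highest and the lowest group, with a group not above background held to the lowest signal that passes as well above it, had a median of 2.58 on the log2 scale over the Rab genes and 2.27 over all detected genes. It was 8.84 for Rab7b, and at least 7.08 for Rab38, 6.43 for Rab30, 5.99 for Rab39 and 5.19 for Rab27b, whose lowest groups give only a bound.

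**Figure D1:**
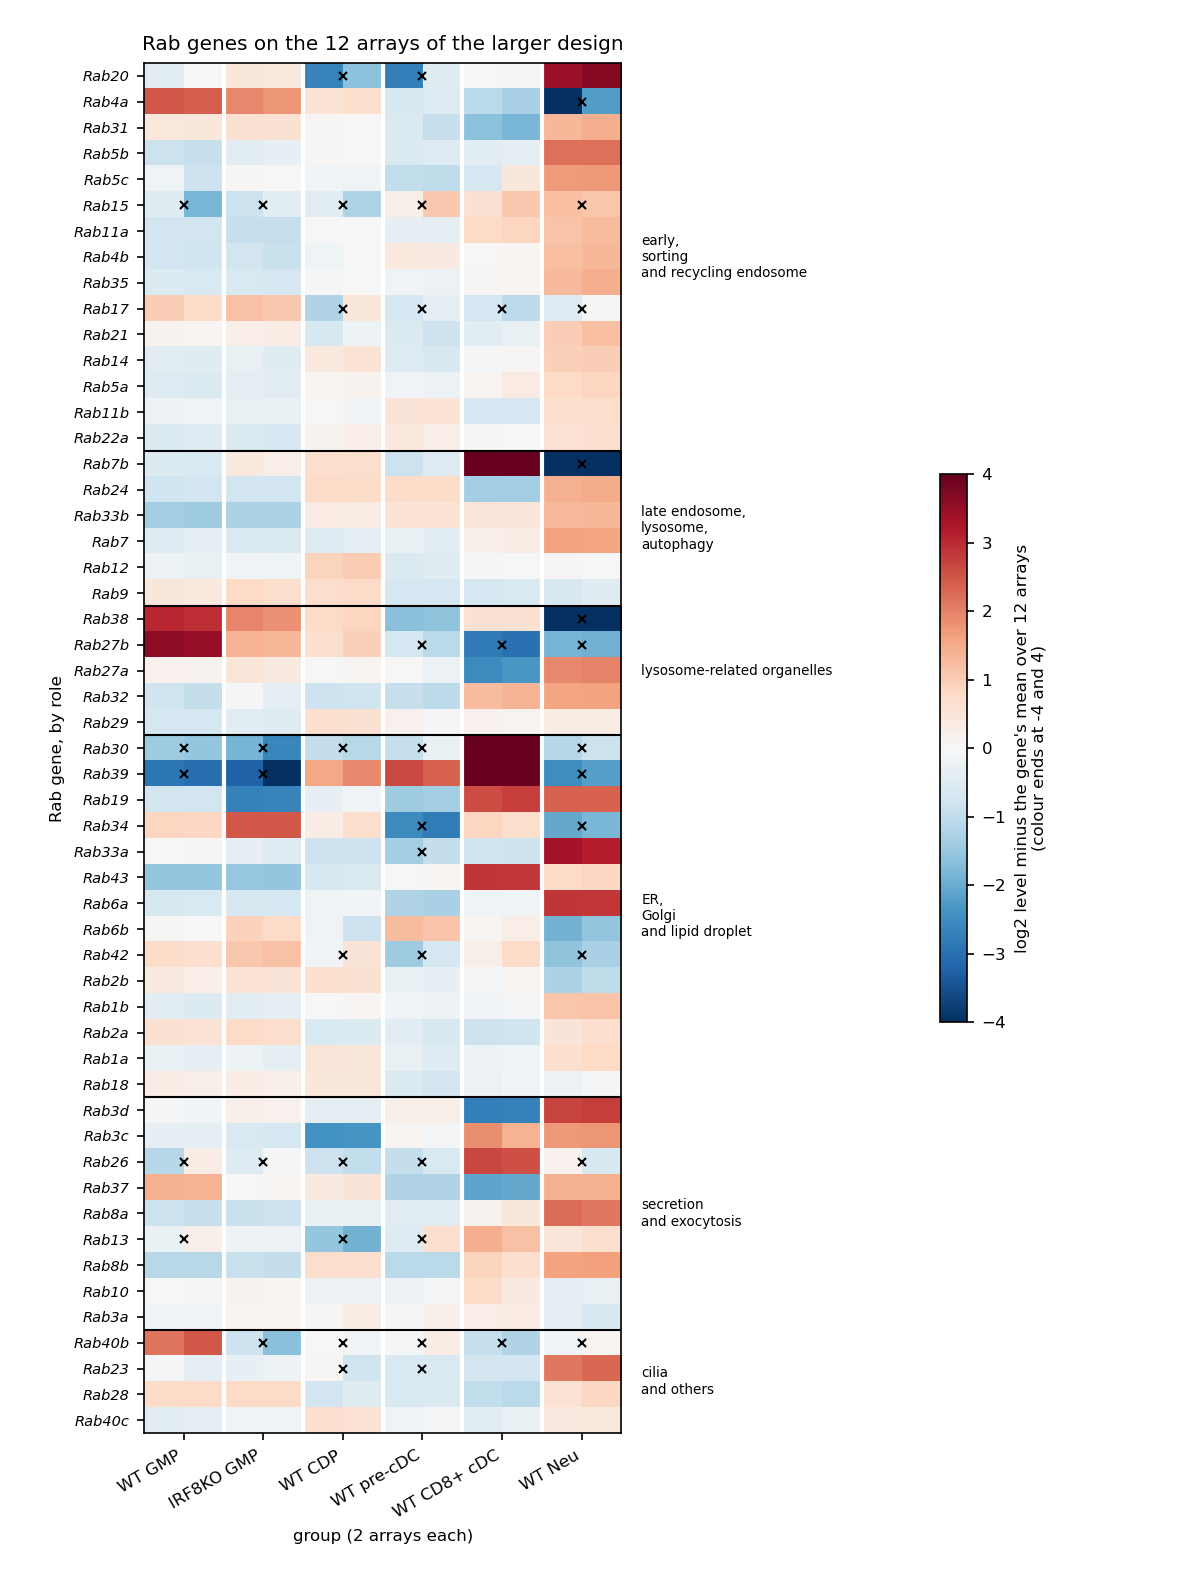
Rows are the 53 Rab genes detected in at least 1 group, ordered by role, and columns are the 12 arrays of the larger design, 2 per group. Colour gives the log2 level minus the gene's mean over the 12 arrays, and a cross marks a group in which fewer than 2 arrays were well above background. Neutrophils hold the highest level for 28 of the 53 genes, against 33% of all detected genes, and Rab7b, Rab30, Rab39 and Rab43 are reddest in WT CD8+ cDC.

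Promoter sequences are shown for Rab genes that moved most between IRF8KO and WT GMP or stood out in CD8+ cDC. Of 10 such genes 5 had an entry in the RefSeq promoter table (assembly GRCm38.p6, 250 bases before to 50 after the start), and for a gene with several starts the one with most motif matches is shown. Capitals mark matches, on either strand, to GAGGAA (ETS core), the ETS-IRF composite element, the interferon response type element, TTGCNNAA (C/EBP) and TGANTCA (AP-1), and matches may overlap.
Rab19, chr6:39381103-39381402, plus strand: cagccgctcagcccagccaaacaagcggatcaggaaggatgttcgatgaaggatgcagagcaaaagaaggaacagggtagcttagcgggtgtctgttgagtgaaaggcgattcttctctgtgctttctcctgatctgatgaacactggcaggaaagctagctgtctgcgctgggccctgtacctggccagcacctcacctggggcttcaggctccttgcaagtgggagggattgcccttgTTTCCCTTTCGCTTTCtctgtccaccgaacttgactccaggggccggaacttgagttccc
Rab34, chr11:78188177-78188476, plus strand: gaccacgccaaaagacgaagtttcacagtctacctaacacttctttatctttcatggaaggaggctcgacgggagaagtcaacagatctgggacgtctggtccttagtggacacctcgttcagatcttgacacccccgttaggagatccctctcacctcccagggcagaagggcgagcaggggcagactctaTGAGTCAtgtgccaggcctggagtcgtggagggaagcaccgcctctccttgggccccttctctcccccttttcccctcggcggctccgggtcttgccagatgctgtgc
Rab39, chr9:53706183-53706482, minus strand: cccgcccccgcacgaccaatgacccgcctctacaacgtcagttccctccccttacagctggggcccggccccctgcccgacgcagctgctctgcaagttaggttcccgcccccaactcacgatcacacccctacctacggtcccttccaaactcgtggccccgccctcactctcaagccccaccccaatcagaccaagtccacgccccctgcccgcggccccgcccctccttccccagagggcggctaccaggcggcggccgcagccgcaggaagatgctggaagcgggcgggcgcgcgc
Rab40b, chr11:121388202-121388501, minus strand: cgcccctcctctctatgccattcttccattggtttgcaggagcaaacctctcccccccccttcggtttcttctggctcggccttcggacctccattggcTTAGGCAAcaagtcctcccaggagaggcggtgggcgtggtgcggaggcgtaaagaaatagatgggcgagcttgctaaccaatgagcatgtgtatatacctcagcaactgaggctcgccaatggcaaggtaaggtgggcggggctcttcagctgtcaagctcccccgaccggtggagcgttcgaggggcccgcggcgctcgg
Rab43, chr6:87809708-87810007, minus strand: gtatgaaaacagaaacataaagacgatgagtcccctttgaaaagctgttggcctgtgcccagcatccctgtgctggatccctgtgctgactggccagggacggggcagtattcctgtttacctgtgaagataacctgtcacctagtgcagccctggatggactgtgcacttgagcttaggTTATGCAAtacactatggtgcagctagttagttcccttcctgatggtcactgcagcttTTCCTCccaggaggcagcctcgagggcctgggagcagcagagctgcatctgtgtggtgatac
The Rab19 window holds 2 overlapping interferon response type matches, a motif present in 3.44% of the 32851 windows of the table and in no other Rab gene among the 48 with an entry. The Rab34 window holds an AP-1 match (7.81% of all windows), Rab40b a C/EBP match (10.8%), and Rab43 a C/EBP and an ETS core match (28.3%). The Rab39 window holds none of the 5. These matches are descriptions of sequence, and no binding was measured.

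Neutrophils were compared with WT GMP, the progenitors from which they arise. The median difference was 1.06 on the log2 scale over the 49 Rab genes tested, against -0.0038 over all 12520 genes tested. With no filter on dim probes it was 0.99 over all 57 Rab genes against 0.53 over all 20284 genes. Of the 49, limma called 31 higher and 13 lower at an adjusted p under 0.05, and 32 of the 44 changed at least 2-fold where a group not above background is taken at its bound. Calls were common in this comparison, at 91.6% of all genes tested (45.6% higher and 45.9% lower), so the count itself does not set Rab genes apart. The share of all genes changed at least 2-fold was not counted here or in the tested comparisons below. The 2-fold counts of Rab genes therefore have no background and describe these genes only. The gap between the 2 medians stayed between 0.84 and 1.19 under the 6 other scalings, but was 0.46 with no filter on dim probes and 1.41 over genes well above background in both groups. The markers moved as the labels say, with a summed neutrophil marker level of 6322 to 6881 in Neu and 10.3 to 10.6 in WT GMP. Markers of other cells moved too. From WT GMP to Neu the 4 basophil and mast cell markers went from a summed 72.0 to 75.7 down to 0.913 to 0.916. The 4 megakaryocyte and platelet markers went from 112 to 116 down to 2.03 to 2.30. The 4 erythroid markers went from 27.9 to 28.4 down to 7.37 to 7.72, although Hba-a1 among them rose, from 1.73 and 1.73 to 2.64 and 2.72. The part of these markers in the result was not tested.

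Of the early and recycling endosome genes 12 of 14 rose and 1 fell, with a median of 1.40. Rab5a, a regulator of early endosome fusion, read 2.57 and 2.49 in WT GMP and 3.85 and 3.93 in Neu, a difference of 1.36 ± 0.086 (SE, adjusted p = 1.42e-06). Its paralog Rab5b went from 2.61 and 2.52 to 5.67 and 5.66, a difference of 3.1003 ± 0.066 (SE, adjusted p = 3.38e-09). Rab11a, of the recycling endosome, went from 2.03 and 2.08 to 3.95 and 4.08 (difference 1.96 ± 0.068 SE, adjusted p = 4.14e-08). In all 3 both neutrophil arrays lay above both GMP arrays, and how often this held over all genes was not counted. It adds no support beyond the calls. Rab20, which acts in phagosome maturation, rose from -2.79 and -2.37 to 1.11 and 1.29, a difference of 3.78 ± 0.66 (SE, adjusted p = 0.000776), and Rab31, which acts between the Golgi and endosomes, from 2.79 and 2.83 to 3.68 and 3.83 (difference 0.95 ± 0.13 SE, adjusted p = 0.000149). The exception was Rab4a, of rapid recycling, at 1.36 and 1.30 in GMP and -5.14 and -3.34 in Neu, where it was not well above background and so at least 18.7-fold lower (adjusted p = 1.05e-05). Its paralog Rab4b went the other way, from 2.04 and 1.996 to 4.01 and 4.12 (difference 2.05 ± 0.085 SE, adjusted p = 1.08e-07).

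Of 6 tested late endosome, lysosome and autophagy genes 4 rose and 2 fell. Rab7, which drives fusion of late endosomes with lysosomes, read 1.94 and 2.05 in GMP and 4.05 and 4.03 in Neu, a difference of 2.05 ± 0.080 (SE, adjusted p = 7.91e-08). The autophagy-related Rab33b went from 0.74 and 0.69 to 3.40 and 3.43 (difference 2.70 ± 0.056 SE, adjusted p = 3.1e-09), and Rab24 went from 3.44 and 3.49 to 5.65 and 5.72 (difference 2.23 ± 0.059 SE, adjusted p = 9.55e-09). Rab7b, of traffic from endosomes to the Golgi, fell from 1.31 and 1.25 to -2.27 and -2.61, with 1 of the 2 neutrophil arrays well above background (difference -3.73 ± 0.14 SE, adjusted p = 7.5e-08). Rab9, of late endosome to Golgi transport, fell less, from 3.61 and 3.53 to 2.51 and 2.66 (difference -0.99 ± 0.083 SE, adjusted p = 8.85e-06).

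The lysosome-related organelle genes split. Rab27a, which docks secretory granules at the plasma membrane, read 2.07 and 2.05 in GMP and 3.82 and 3.89 in Neu, a difference of 1.80 ± 0.11 (SE, adjusted p = 9.82e-07). Rab32 went from 3.58 and 3.44 to 5.96 and 5.98 (difference 2.46 ± 0.11 SE, adjusted p = 1.58e-07). Its close relative Rab38, with which it shares a role in melanosome formation, moved oppositely, from 4.23 and 4.16 to -3.66 and -3.26. Rab38 was not well above background in Neu and was at least 136-fold lower there (adjusted p = 1.32e-09), while its second probe was not well above background in any of these groups. Rab27b was likewise not well above background in Neu, at -3.999 and -4.07 against 1.44 and 1.33 in GMP, and was at least 19.4-fold lower (adjusted p = 1.32e-08).

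Of 12 tested genes of the ER, Golgi and lipid droplet list, which also counts Rab34, 6 rose and 5 fell. Rab6a, of traffic back through the Golgi, read 3.16 and 3.19 in GMP and 6.65 and 6.61 in Neu, a difference of 3.46 ± 0.063 (SE, adjusted p = 1.86e-09), whereas its paralog Rab6b went from -0.77 and -0.83 to -2.71 and -2.39 (difference -1.75 ± 0.22 SE, adjusted p = 0.000106). Rab33a rose from -1.79 and -1.87 to 1.52 and 1.33 (difference 3.25 ± 0.14 SE, adjusted p = 1.31e-07) and Rab19 from -0.042 and -0.021 to 3.05 and 3.05 (difference 3.08 ± 0.084 SE, adjusted p = 1.12e-08). Rab34, linked to lysosome positioning, was at -0.69 and -0.72 in GMP and -3.61 and -3.39 in Neu, not well above background there and at least 4.55-fold lower (adjusted p = 6.88e-07). These genes were picked as called, so that their pairs of arrays did not overlap adds no support. Of 8 secretion genes 4 rose and 2 fell. Rab3d, of regulated exocytosis, went from 2.93 and 2.91 to 5.72 and 5.80 (difference 2.84 ± 0.060 SE, adjusted p = 3.26e-09), Rab8a, of transport to the cell surface, went from 1.82 and 1.73 to 4.90 and 4.77 (difference 3.06 ± 0.11 SE, adjusted p = 4.16e-08), and Rab8b went from 2.80 and 2.81 to 5.51 and 5.56 (difference 2.73 ± 0.081 SE, adjusted p = 1.74e-08). Rab37, of mast cell granules, read 4.08 and 4.04 in GMP and 4.07 and 4.08 in Neu, a difference of 0.018 ± 0.077 (SE, adjusted p = 0.827) that did not pass. Rab23, an inhibitor of Hedgehog signalling, went from -2.23 and -2.55 to -0.038 and 0.15 (difference 2.44 ± 0.25 SE, adjusted p = 2.67e-05).

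**Figure D2:**
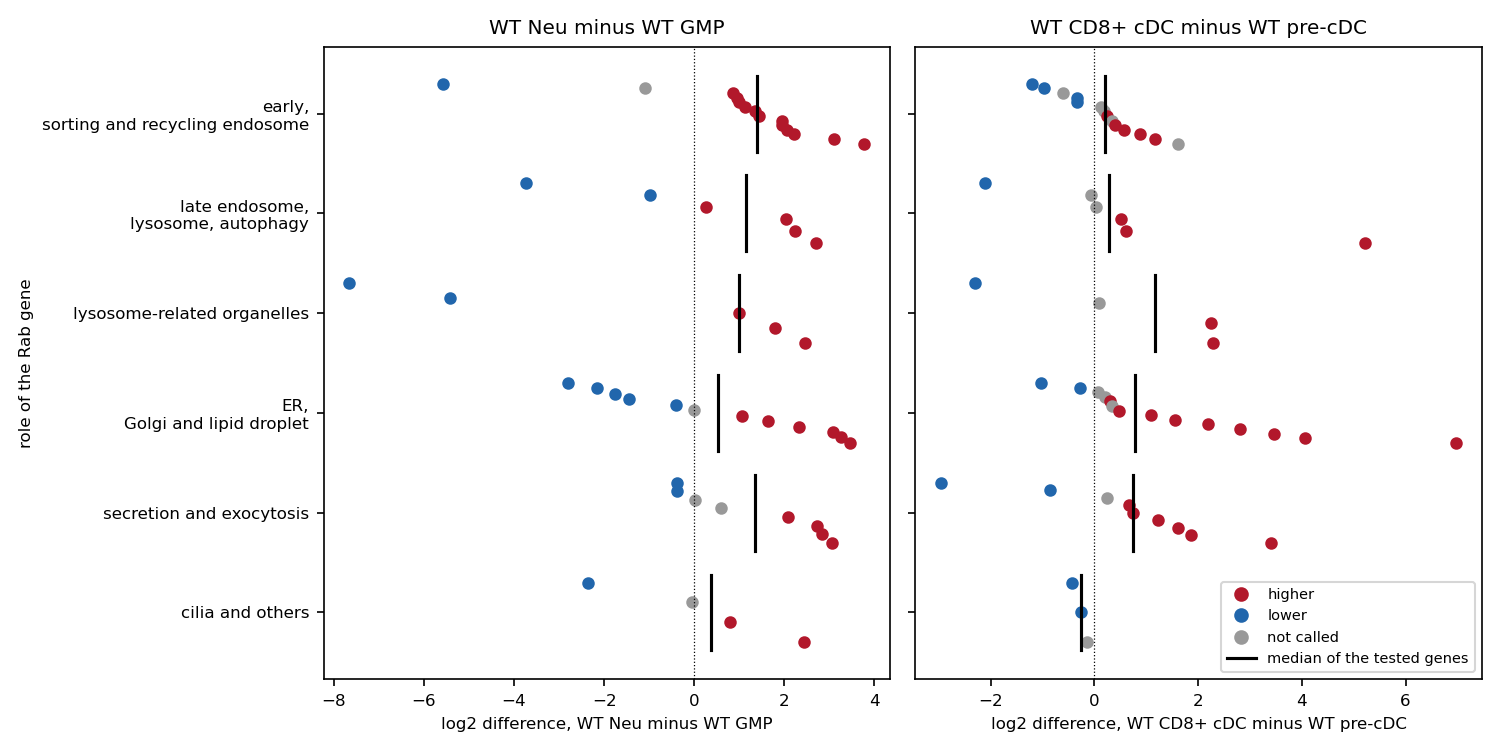
Each point is a tested Rab gene, placed on the horizontal axis by its log2 difference (left, WT Neu minus WT GMP; right, WT CD8+ cDC minus WT pre-cDC) and in rows by role. Red genes were called higher, blue lower and grey not called, and the black line is the median of the row. In neutrophils 12 of 14 endosomal genes lie to the right of 0 and were called.

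CD8+ cDC, the mature splenic cells specialised in presenting captured antigen on MHC class I, were compared with pre-cDC of the marrow. Of 50 Rab genes tested 25 were higher and 12 lower, against a background of 73% of all genes called (39.3% higher and 33.7% lower), and 18 of the 37 changed at least 2-fold with undetected groups at their bound. The median difference was 0.34 over the Rab genes and 0.084 over all 12597 genes tested, and 0.23 and -0.44 with no filter on dim probes. Scaling on array medians shifted the median of all genes to 0.34 and gave 30 higher and 7 lower. Rab30, Rab7b and Rab19 were among the genes that rose most, and Rab3d, Rab27a and Rab24 among those that fell most. Summed erythroid markers moved with this comparison, from 4.99 to 5.19 in pre-cDC to 182 to 198 in CD8+ cDC. That rise was of Hba-a1, from 1.98 and 2.04 to 7.50 and 7.63. Car1, of the same list, fell from -0.15 and -0.28 to -1.06 and -0.99. Basophil and mast cell markers went from 13.1 to 15.4 down to 0.0991 to 0.104, megakaryocyte and platelet markers from 4.22 to 4.23 down to 0.266 to 0.282, neutrophil markers from 48.9 to 51.0 down to 19.7 to 20.8, and macrophage markers from 0.850 to 0.996 up to 14.5 to 15.5. Plasmacytoid dendritic cell markers went from 494 to 518 in pre-cDC down to 225 to 276 in CD8+ cDC. Ccr9 among them rose, from 2.57 and 2.57 to 2.72 and 2.79. GMP markers went from 148 to 149 in pre-cDC down to 20.6 on both CD8+ cDC arrays, although Kit among them rose. The part of these markers in the result was not tested.

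Of 14 tested genes of the ER, Golgi and lipid droplet list, which also counts Rab39 and Rab34, 9 rose and 2 fell. Rab43, an ER to Golgi regulator that has a known part in cross-presentation by CD8+ cDC, read 3.80 and 3.77 in WT GMP, 4.71 and 4.76 in CDP, 5.35 and 5.40 in pre-cDC and 8.20 and 8.15 in CD8+ cDC. The last step was 2.80 ± 0.062 (SE, adjusted p = 3.28e-08). On this brightest probe the pairs of arrays did not overlap at any of the 3 steps, which was not counted over all genes. All 3 steps were called, so this adds no support. Rab30, of the Golgi, was not well above background in pre-cDC, at -4.91 and -4.28, and read 2.32 and 2.44 in CD8+ cDC, at least 34.5-fold higher (adjusted p = 4.66e-07). In the 12 arrays of the larger design it was well above background in CD8+ cDC alone. Rab39, of endosome and phagosome traffic, went from -0.10 and -0.38 to 1.998 and 1.89 (difference 2.19 ± 0.25 SE, adjusted p = 0.000121). Rab19 rose from -0.71 and -0.65 to 3.30 and 3.45 (difference 4.05 ± 0.084 SE, adjusted p = 2.58e-08). Rab34 was not well above background in pre-cDC, at -4.11 and -4.37, and read -0.68 and -0.85 in CD8+ cDC, at least 3.89-fold higher (adjusted p = 8e-07). The promoter windows of Rab19, Rab34, Rab39 and Rab43 printed above share no motif among the 5 searched.

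Rab7b gave the largest measured rise with both groups above background, from 1.01 and 1.36 to 6.44 and 6.35, a difference of 5.21 ± 0.14 (SE, adjusted p = 8.64e-08). Rab7 itself went from 2.15 and 2.04 to 2.65 and 2.76 (difference 0.61 ± 0.080 SE, adjusted p = 0.000253), and Rab24 fell from 4.98 and 4.99 to 2.88 and 2.85 (difference -2.12 ± 0.059 SE, adjusted p = 8.87e-08). Of the lysosome-related genes Rab32 rose from 3.45 and 3.34 to 5.64 and 5.74 (difference 2.30 ± 0.11 SE, adjusted p = 1.01e-06) and Rab38 from -0.45 and -0.41 to 1.83 and 1.83 (difference 2.26 ± 0.13 SE, adjusted p = 2.37e-06). Both relatives rose at this step, Rab38 by 0.52 when its dim second probe was averaged in. Rab27a, the granule docking gene, fell from 1.89 and 1.66 to -0.63 and -0.43 (difference -2.31 ± 0.11 SE, adjusted p = 9.2e-07), and Rab3d from 3.26 and 3.27 to 0.30 and 0.33 (difference -2.95 ± 0.060 SE, adjusted p = 2.32e-08).

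Of 9 secretion genes 6 rose and 2 fell. Rab26, of granule maturation, was not well above background in pre-cDC, at -4.92 and -4.56, and read -1.29 and -1.37 in CD8+ cDC, at least 2.64-fold higher (adjusted p = 0.000333). Rab8b rose from 2.82 and 2.81 to 4.79 and 4.58 (difference 1.86 ± 0.081 SE, adjusted p = 6.81e-07) and Rab3c from 5.04 and 4.92 to 6.83 and 6.37 (difference 1.62 ± 0.14 SE, adjusted p = 2.41e-05). A second probe of Rab3c moved with the one used, and the other was not well above background in any of these groups, and the mean over the probes rose by 0.81. Endosomal genes moved less, with 5 of 14 higher, 4 lower and a median of 0.21. Rab11a went from 2.47 and 2.46 to 3.59 and 3.67 (difference 1.17 ± 0.068 SE, adjusted p = 3.03e-06), Rab5a went from 2.92 and 2.83 to 3.19 and 3.38 (difference 0.41 ± 0.086 SE, adjusted p = 0.00343), and Rab31 fell from 1.79 and 1.43 to 0.73 and 0.54 (difference -0.97 ± 0.13 SE, adjusted p = 0.000237). In the authors' deposited table Rab5a differed by 2.69 at this step and by -2.14 from CDP to pre-cDC, where the scanner values gave -0.29, and the cause of the gap was not tested.

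**Figure D3:**
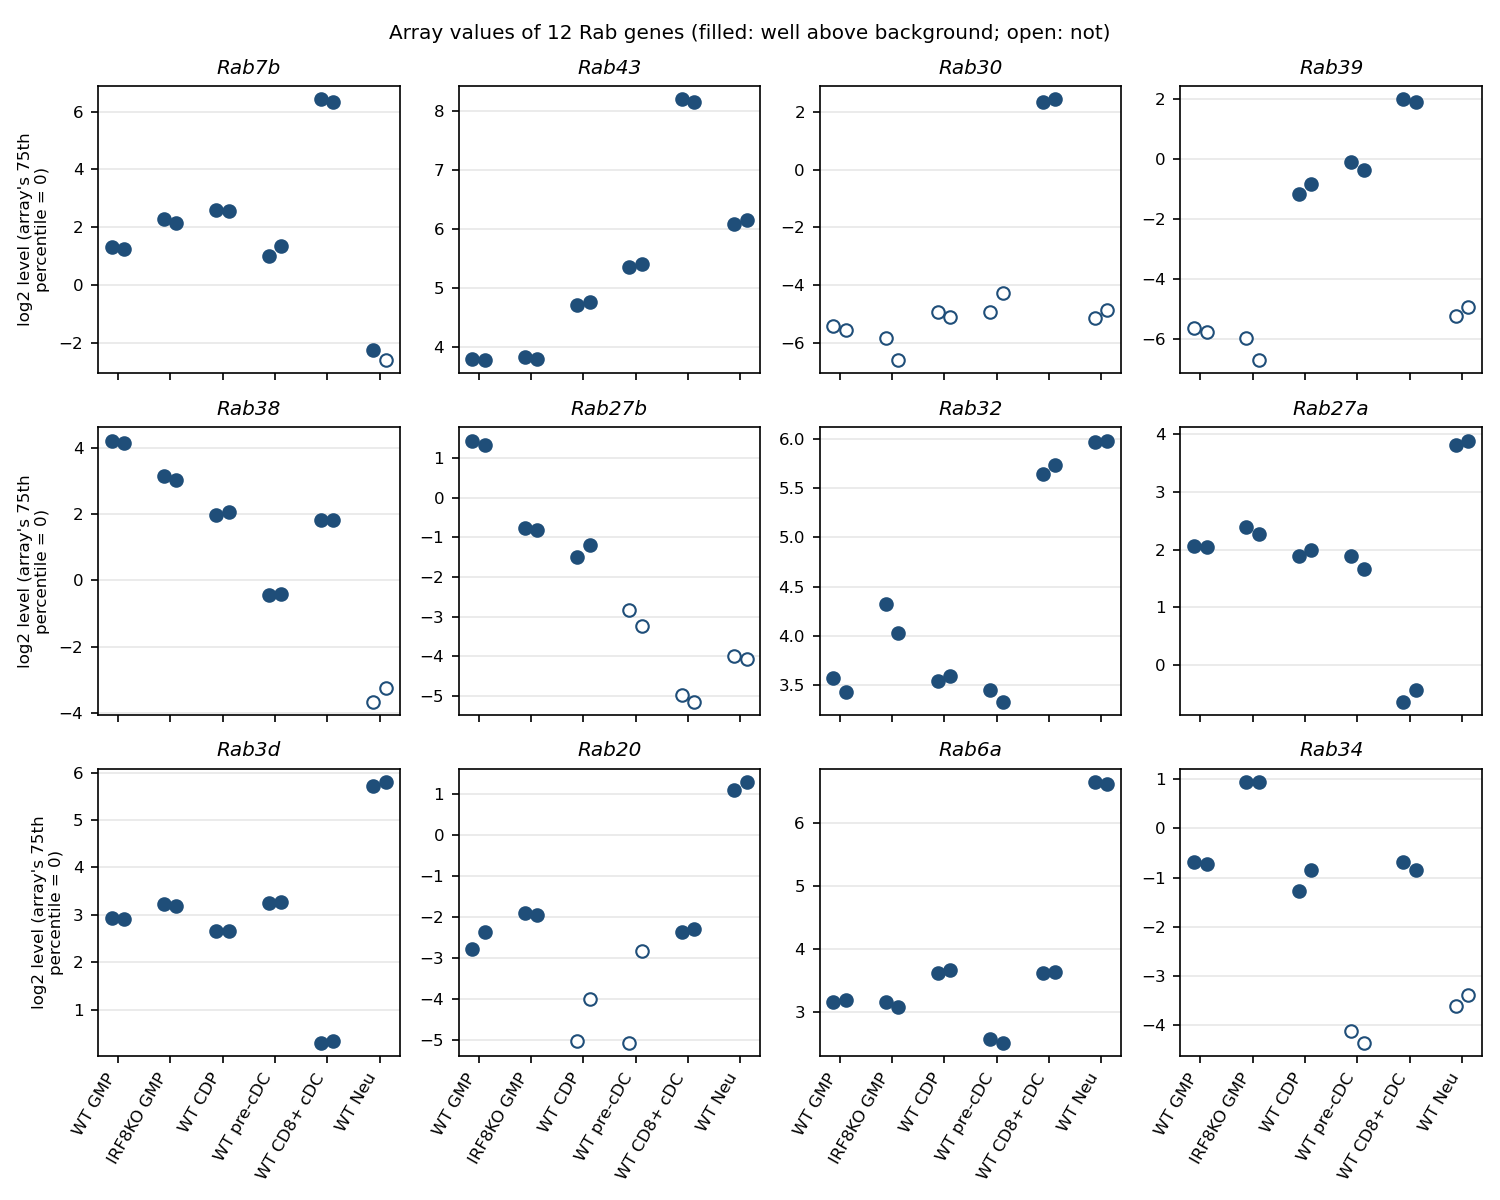
Each panel plots the log2 level of 1 Rab gene on the 2 arrays of each of 6 groups, with filled points well above background and open points not. Each panel has its own vertical axis. Rab7b, Rab43, Rab30 and Rab39 are highest in WT CD8+ cDC, Rab27a, Rab3d, Rab20 and Rab6a in WT Neu, and Rab38 and Rab27b in WT GMP.

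CD8+ cDC and neutrophils lay on 1 slide, so the slide does not differ between them. The organ does differ, spleen against bone marrow, and so does the isolation, beads with flow sorting against flow sorting only. Their part cannot be told apart from the cell type. Of 50 Rab genes tested 14 were higher in CD8+ cDC and 29 lower, against 84.7% of all genes called (43.4% higher and 41.3% lower), and 29 changed at least 2-fold with undetected groups at their bound. The median difference was -0.68 over the Rab genes and -0.00055 over all 12817 genes tested, and -0.83 and -0.60 with no filter on dim probes, a smaller gap. Summed erythroid markers stood at 182 to 198 in CD8+ cDC and 7.37 to 7.72 in Neu, mostly from Hba-a1, and their part was not tested. From the 4 arrays alone 41 of the 50 were called. Endosomal genes were lower in CD8+ cDC for 12 of 14 with 1 higher. Genes of the ER, Golgi and lipid droplet list, Rab39 and Rab34 among them, were higher for 8 of 14 and lower for 5. This comparison shares the CD8+ cDC or Neu arrays with those above, so the values are given side by side and are not independent of them.

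The widest fitted difference between the 2 mature cells was that of Rab7b, 8.84 ± 0.14 (SE, adjusted p = 1.47e-09), 1 of the 2 neutrophil arrays being well above background. Rab30 was at least 38.6-fold higher in CD8+ cDC (adjusted p = 9.18e-08), Rab39 at least 28.6-fold (adjusted p = 5.97e-08) and Rab38 at least 26.3-fold (adjusted p = 7.66e-09), each not well above background in Neu. Rab43 was higher by 2.06 ± 0.062 (SE, adjusted p = 2.48e-08). In the other direction Rab3d differed by -5.45 ± 0.060 (SE, adjusted p = 4.14e-10), Rab27a by -4.39 ± 0.11 (SE, adjusted p = 8.65e-09), Rab33a by -4.07 ± 0.14 (SE, adjusted p = 4.77e-08) and Rab20 by -3.52 ± 0.66 (SE, adjusted p = 0.00134). Rab37 read 0.54 and 0.62 in CD8+ cDC and 4.07 and 4.08 in Neu (difference -3.49 ± 0.077 SE, adjusted p = 5.39e-09), and Rab31 differed by -3.12 ± 0.13 (SE, adjusted p = 1.19e-07). Rab32 differed little, by -0.28 ± 0.11 (SE, adjusted p = 0.0401), and quantile normalization and the authors' table turned the sign of that small difference.

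CDP, progenitors of the dendritic cell lineage, were compared with WT GMP. Of 49 Rab genes tested 23 were higher and 14 lower, a share close to the 76.5% called over all genes (50.9% higher and 25.6% lower), and 15 changed at least 2-fold with undetected groups at their bound. The median difference was 0.31 over the Rab genes and 0.31 over all 11899 genes tested. It was -0.17 and 0.014 with quantile normalization, -0.17 and 0.024 in the authors' deposited table, and 0.31 and 0.46 with no filter on dim probes. The split depends on the scaling: it was 17 higher and 19 lower with quantile normalization and with the authors' table, and 15 and 25 when the percentile was taken over detected probes only, where the median of all genes moved to -0.20. The called changes named below kept their direction and call under every alternative tried. The 5 GMP markers summed to 1797 to 1866 in GMP and still to 1335 to 1371 in CDP. Mpo among them rose, from 9.56 and 9.43 to 9.85 and 9.88, while Elane, Prtn3, Ctsg and Kit fell. Summed basophil and mast cell markers went from 72.0 to 75.7 in GMP down to 2.23 to 2.40 in CDP. Megakaryocyte and platelet markers went from 112 to 116 down to 22.6 to 24.2, although Ppbp among them rose, from -0.09 and -0.12 to 2.95 and 2.84. The part of these markers in the result was not tested.

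Rab39 gave the largest rise, from -5.62 and -5.76 in GMP, not well above background, to -1.18 and -0.82 in CDP, at least 6.16-fold (adjusted p = 1.88e-06). Late endosome and autophagy genes rose for 5 of 6 tested with a median of 1.25. Rab33b went from 0.74 and 0.69 to 2.43 and 2.41 (difference 1.70 ± 0.056 SE, adjusted p = 2.38e-07), Rab24 from 3.44 and 3.49 to 5.002 and 4.98 (difference 1.53 ± 0.059 SE, adjusted p = 4.56e-07), Rab7b from 1.31 and 1.25 to 2.58 and 2.56 (difference 1.28 ± 0.14 SE, adjusted p = 9.73e-05) and Rab12, of transport to lysosomes, from 1.35 and 1.27 to 2.47 and 2.57 (difference 1.21 ± 0.072 SE, adjusted p = 3.19e-06). Rab7 was the member that did not pass, at 0.020 ± 0.080 (SE, adjusted p = 0.827). Rab29, of lysosome-related organelles, rose from 2.60 and 2.57 to 3.90 and 3.90 (difference 1.31 ± 0.084 SE, adjusted p = 4.41e-06). The brightest probe of Rab8b rose from 2.80 and 2.81 to 4.61 and 4.57 (difference 1.78 ± 0.081 SE, adjusted p = 9.42e-07), but its second probe, well above background in both groups, differed by -0.018, and the mean over both rose by 0.88.

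Rab27b, of granule release, gave the largest fall. It went from 1.44 and 1.33 to -1.50 and -1.19 (difference -2.73 ± 0.15 SE, adjusted p = 2.43e-06), Rab38 from 4.23 and 4.16 to 1.97 and 2.06 (difference -2.18 ± 0.13 SE, adjusted p = 2.76e-06) and Rab37 from 4.08 and 4.04 to 3.01 and 3.17 (difference -0.96 ± 0.077 SE, adjusted p = 1.46e-05). With the probes of a gene averaged, Rab38 fell by 0.90 and Rab3c by 1.19. Rab3c fell from 4.64 and 4.61 to 2.54 and 2.61 (difference -2.05 ± 0.14 SE, adjusted p = 5.99e-06), Rab4a from 1.36 and 1.30 to -0.58 and -0.42 (difference -1.83 ± 0.48 SE, adjusted p = 0.00938) and Rab28, of cilia, from 0.57 and 0.60 to -0.94 and -0.66 (difference -1.38 ± 0.11 SE, adjusted p = 1.77e-05). Rab27a and Rab32 did not pass, at -0.11 ± 0.11 (SE, adjusted p = 0.363) and 0.066 ± 0.11 (SE, adjusted p = 0.6).

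From CDP to pre-cDC 8 of 44 Rab genes were higher and 23 lower, under the background of 82.8% of all genes called (23.2% higher and 59.5% lower), and 15 changed at least 2-fold with undetected groups at their bound. The median was -0.31 over the Rab genes and -0.54 over all 11481 genes tested, but -0.17 and 0.073 with no filter on dim probes, which turns the order of the 2. The split was 16 higher and 18 lower with quantile normalization, 18 and 19 in the authors' table, 11 and 19 with normexp, 2 and 35 with array medians and 22 and 14 with the percentile over detected probes, where the median of all genes ran from -1.01 to 0.014. The following kept direction and call in every alternative. Rab34 was not well above background in pre-cDC and at least 3.17-fold lower than in CDP (adjusted p = 1.3e-06). Rab38 fell from 1.97 and 2.06 to -0.45 and -0.41 (difference -2.44 ± 0.13 SE, adjusted p = 1.5e-06), Rab8b from 4.61 and 4.57 to 2.82 and 2.81 (difference -1.77 ± 0.081 SE, adjusted p = 1.04e-06) and Rab37 from 3.01 and 3.17 to 1.44 and 1.45 (difference -1.65 ± 0.077 SE, adjusted p = 1.07e-06). Rab12 fell by 1.49 ± 0.072 (SE, adjusted p = 1.19e-06), Rab9 by 1.42 ± 0.083 (SE, adjusted p = 2.56e-06), Rab7b by 1.39 ± 0.14 (SE, adjusted p = 5.19e-05) and Rab19 by 1.16 ± 0.084 (SE, adjusted p = 7.24e-06). Rab3c, from 2.54 and 2.61 to 5.04 and 4.92 (difference 2.41 ± 0.14 SE, adjusted p = 2.35e-06), and Rab6b, from -0.95 and -1.63 to 0.45 and 0.32 (difference 1.67 ± 0.22 SE, adjusted p = 0.000199), rose. With the probes of a gene averaged Rab38 fell by 1.03 and Rab3c rose by 1.62. Rab12 and Rab7b had thus risen into CDP and fallen again into pre-cDC. Marker sums moved with this step. GMP markers went from 1335 to 1371 in CDP down to 148 to 149 in pre-cDC. Neutrophil markers went from 0.654 to 0.701 up to 48.9 to 51.0, and basophil and mast cell markers from 2.23 to 2.40 up to 13.1 to 15.4. Plasmacytoid dendritic cell markers went from 310 to 314 up to 494 to 518. Megakaryocyte and platelet markers went from 22.6 to 24.2 down to 4.22 to 4.23. The part of all these markers was not tested.

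The arrays labelled IRF8KO GMP were compared with WT GMP on the same slide, the comparison of the genotypes that the labels name. Most Rab genes did not pass: of 49 tested 7 were higher and 5 lower, 24.5%, against 20.6% of all genes called (12.5% higher and 8.14% lower). The median was 0.065 over the Rab genes and 0.036 over all 12156 genes tested, and 0.038 and -0.070 with no filter on dim probes. At least 2-fold changes, with undetected groups at their bound, were seen for 6 of the 12, of which 5 were lower. The share of all genes with such a change was not counted. Array medians gave 4 higher and 5 lower. From the 4 arrays alone 10 were called.

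All 5 lower genes kept their call in every alternative. Rab40b, which serves a ubiquitin ligase, read -2.80 and -2.46 in WT and -5.78 and -6.63 in the arrays labelled IRF8KO, where it was not well above background, and was at least 2.66-fold lower (adjusted p = 0.000166). Rab27b, of granule release, fell from 1.44 and 1.33 to -0.76 and -0.82 (difference -2.18 ± 0.15 SE, adjusted p = 0.000103). Rab19 fell from -0.042 and -0.021 to -1.997 and -1.97 (difference -1.95 ± 0.084 SE, adjusted p = 1.22e-05), Rab37 from 4.08 and 4.04 to 2.63 and 2.73 (difference -1.38 ± 0.077 SE, adjusted p = 3.68e-05) and Rab38 from 4.23 and 4.16 to 3.15 and 3.04 (difference -1.10 ± 0.13 SE, adjusted p = 0.000963). Both arrays labelled IRF8KO lay below both WT arrays in each, which was not counted over all genes. It adds no support, since these genes were picked as called. Other cell markers moved with them: the 4 basophil and mast cell markers, all well above background in both groups, summed to 72.0 to 75.7 in WT and 26.7 to 27.5 in IRF8KO, the 4 megakaryocyte and platelet markers to 112 to 116 and 31.2 to 32.1, and the 4 erythroid markers to 27.9 to 28.4 and 1.31 to 1.37. Their part in the falls was not tested. Rab27b, Rab38, Rab37 and Rab40b were also lower in CDP than in WT GMP, a comparison that shares the WT GMP arrays, with log2 differences of -2.73, -2.18 and -0.96 for the first 3 and, not well above background in CDP, at least 1.26-fold, although normexp gave a higher Rab40b there. Rab19 went the other way and was called higher in CDP, by 0.51, a call kept in 16 of 17 alternatives.

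Of the 7 higher genes Rab34 and Rab7b kept their call in every alternative. Rab34 read -0.69 and -0.72 in WT and 0.94 and 0.93 in the arrays labelled IRF8KO (difference 1.64 ± 0.16 SE, adjusted p = 0.000405), its highest level of the 6 groups. Rab7b went from 1.31 and 1.25 to 2.27 and 2.14 (difference 0.92 ± 0.14 SE, adjusted p = 0.0042). Rab32 went from 3.58 and 3.44 to 4.32 and 4.03 (difference 0.67 ± 0.11 SE, adjusted p = 0.00485), with adjusted p = 0.0777 from the 4 arrays alone. Rab5b, at 0.51 ± 0.066 (SE, adjusted p = 0.00168), rested on its brightest probe, since of its 3 other, dimmer probes 1 differed by 0.30 and the others by -0.057 and -0.0014, and the mean over its probes was not called (adjusted p = 0.186). Rab6b, Rab9 and Rab3d, at 0.83, 0.33 and 0.30, were not called when single arrays were left out, with adjusted p of 0.0999 to 0.167 for Rab6b and 0.0635 to 0.171 for Rab9 without any 1 of the 4 arrays, and 0.066 to 0.0847 for Rab3d without WT replicate 1, WT replicate 2 or IRF8KO replicate 1. Rab43, Rab31, Rab5a, Rab7, Rab11a, Rab20 and Rab27a did not pass, with differences of 0.026, 0.16, 0.12, -0.13, -0.18, 0.66 and 0.28. Summed neutrophil markers went beside these from 10.3 to 10.6 in WT up to 36.5 to 38.9.

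**Figure D4:**
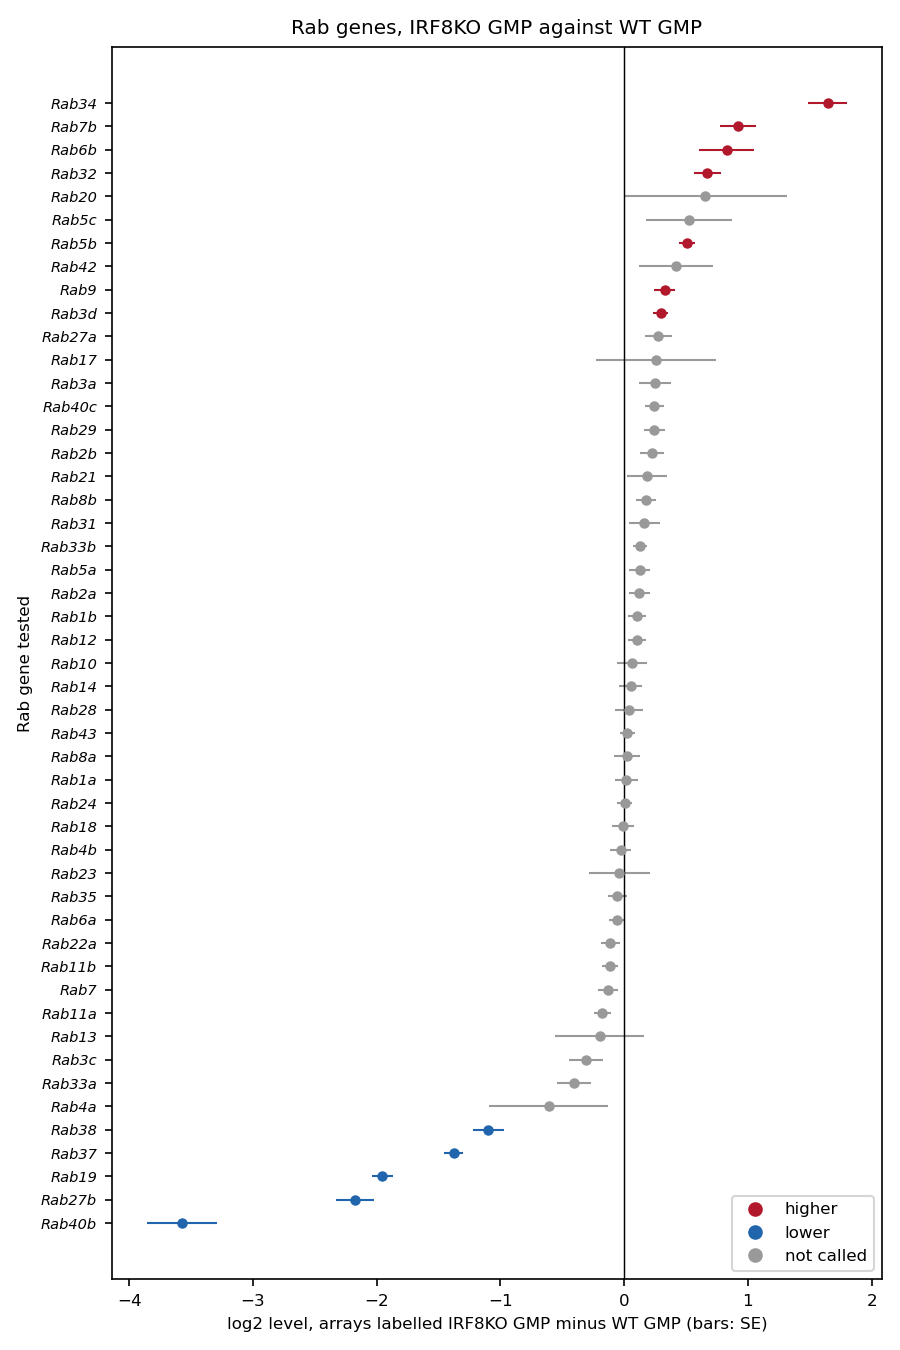
Points give the log2 difference of the 49 tested Rab genes between IRF8KO-labelled and WT GMP, 2 arrays each, with bars for the standard error. Red genes were called higher, blue lower and grey not called. The 5 blue genes lie at or below -1.10, and the highest red gene, Rab34, lies at 1.64.

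CD4+ cDC were measured on the smaller array design and are described against CD8+ cDC without a test. Levels were set on the 75th percentile over the probes that both designs share, since the own percentile of the other arrays lies 0.97 to 1.35 lower on the log2 scale. With that scale 7 of 52 detected Rab genes were at least 2-fold higher in CD4+ cDC and 13 at least 2-fold lower, 38.5%, against 37% of all 13520 detected genes. The authors' deposited table gave 8 and 11. The median difference was 0.039 over the Rab genes and -0.028 over all genes.

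Rab7b stood apart. On the shared scale it read 5.35 and 5.25 in CD8+ cDC and -4.90 and -2.83 in CD4+ cDC, a difference of -9.16, and -8.91 in the authors' deposited table. The 2 CD4+ cDC arrays themselves differed by 2.06, the widest replicate gap among Rab genes above background in these data, and both lay far below CD8+ cDC. Rab3c read 5.74 and 5.27 in CD8+ cDC and 1.38 and 1.63 in CD4+ cDC (-4.002), Rab32 read 4.55 and 4.63 in CD8+ cDC and 2.14 and 2.16 in CD4+ cDC (-2.44) and Rab39 read 0.91 and 0.79 in CD8+ cDC and -1.34 and -1.51 in CD4+ cDC (-2.27). Rab43 was lower by 1.59 on the shared scale but by 0.76 in the authors' deposited table. Rab30 read 1.23 and 1.34 in CD8+ cDC and 0.78 and 1.16 in CD4+ cDC, a difference of -0.31. Higher in CD4+ cDC were Rab37, at 2.29 and 2.58 against -0.55 and -0.48 (2.94), Rab28 (1.88), Rab6b (1.88), Rab24 (1.71), Rab21 (1.49) and Rab20 (1.37). Isolation by beads alone, the array design and the slide all differ between the 2 groups, and their part cannot be told apart from the cell type.

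**Figure D5:**
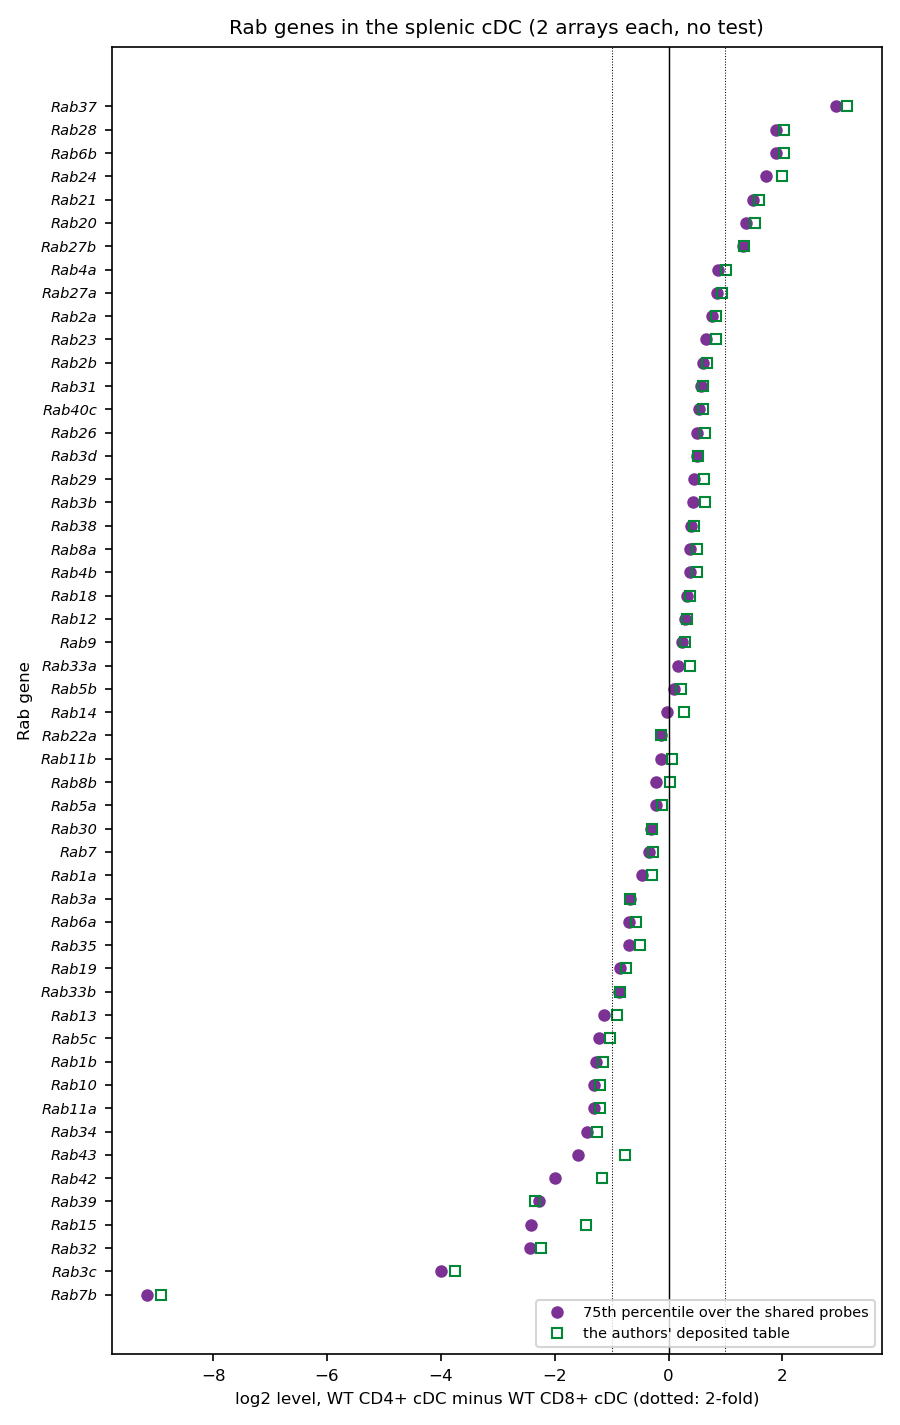
Points give, for the 52 Rab genes detected in either splenic cDC, the log2 level in WT CD4+ cDC minus that in WT CD8+ cDC, on the scale of the shared probes (circles) and in the authors' deposited table (squares). Dotted lines mark 2-fold. Rab7b lies at -9.16, and Rab37 is the highest, at 2.94.

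The proteins that load, switch off and carry Rabs were followed through 4 lists: 35 exchange factors, 33 measured GTPase-activating proteins, 35 measured effectors and 8 genes of prenylation and membrane cycling. In neutrophils against GMP, where 91.6% of all genes were called (45.6% higher and 45.9% lower), 20 of 31 tested exchange factors rose and 10 fell, 16 of 31 GTPase-activating proteins rose and 13 fell, 15 of 29 effectors rose and 7 fell, and 5 of 8 cycling genes rose and 2 fell. Rin2, an exchange factor for Rab5, read -2.86 and -2.74 in GMP and 4.15 and 4.18 in Neu (difference 6.96 ± 0.14 SE, adjusted p = 2.77e-09), beside the rise of the Rab5 genes. The Rab11 effector Rab11fip1 was not well above background in GMP and rose to 0.80 and 0.79, at least 20.6-fold (adjusted p = 9.3e-06). Plekhm1, an effector of Rab7, differed by 3.26 ± 0.061 (SE, adjusted p = 2.01e-09). The GTPase-activating protein genes Sgsm2, Tbc1d16 and Tbc1d4 were not well above background in Neu and were at least 22.4-, 8.09- and 16.2-fold lower. Rabggtb, a subunit of the enzyme that prenylates Rabs, fell by 3.46 and Chml, of Rab escort, by 2.64. Chm rose by 2.73, from -3.80 and -2.74 in GMP to -0.56 and -0.51 in Neu. The first GMP value lies below the lowest level well above background on that array, -3.31, so the size of the rise is uncertain.

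In CD8+ cDC against pre-cDC, with 73% of all genes called (39.3% higher and 33.7% lower), 14 of 34 exchange factors rose and 13 fell, 12 of 31 GTPase-activating proteins rose and 12 fell, 11 of 26 effectors rose and 10 fell, and 3 of 8 cycling genes rose and 2 fell. Tbc1d4 read 0.56 and 0.40 in pre-cDC and 4.52 and 4.48 in CD8+ cDC (difference 4.02 ± 0.29 SE, adjusted p = 9.22e-06) and Tbc1d9 went from -0.37 and -0.47 to 3.41 and 3.43 (difference 3.84 ± 0.22 SE, adjusted p = 2.82e-06). Tbc1d2 fell, with a difference of -3.82 ± 0.084 (SE, adjusted p = 3.09e-08). Sytl1, a synaptotagmin-like effector of Rab27, read 1.37 and 1.31 in pre-cDC and -1.56 and -1.67 in CD8+ cDC (difference -2.95 ± 0.076 SE, adjusted p = 6.39e-08), beside the fall of Rab27a. Against neutrophils, where Sytl1 read 4.61 and 4.68, its difference was -6.26 ± 0.076 (SE, adjusted p = 5.57e-10). From GMP to CDP, with 76.5% of all genes called (50.9% higher and 25.6% lower), 19 of 30 exchange factors rose and 6 fell, 16 of 31 GTPase-activating proteins rose and 7 fell, 13 of 27 effectors rose and 9 fell, and 3 of 7 cycling genes rose and 3 fell. Chml, of Rab escort, differed by 1.99 ± 0.078 (SE, adjusted p = 4.78e-07) and Ankrd27, of the exchange factor list, by -1.39 ± 0.064 (SE, adjusted p = 9.58e-07). From CDP to pre-cDC, with 82.8% of all genes called (23.2% higher and 59.5% lower), 11 of 31 exchange factors rose and 14 fell, 6 of 30 GTPase-activating proteins rose and 17 fell, 6 of 26 effectors rose and 13 fell, and 1 of 7 cycling genes rose and 6 fell.

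In the arrays labelled IRF8KO, against 20.6% of all genes called (12.5% higher and 8.14% lower), 3 of 31 exchange factors rose and 1 fell (12.9% called), 6 of 31 GTPase-activating proteins rose and 1 fell (22.6%), 5 of 28 effectors rose and 2 fell (25%), and none of the 8 cycling genes was called by limma, with 2, Gdi2 and Rabac1, at an unadjusted p of 0.0274 and 0.0126. Sytl1 rose from 1.91 and 1.85 to 2.89 and 2.79 (difference 0.96 ± 0.076 SE, adjusted p = 0.000161). Dennd2a, an exchange factor, was not well above background in WT and was at least 1.62-fold higher (adjusted p = 0.00955), and Optn, an effector of Rab8, differed by -2.70 ± 0.52 (SE, adjusted p = 0.0105).

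Where a Rab gene had several probes, the brightest was used. Of the other probes well above background for called genes, 15 of 16 moved the same way in neutrophils against GMP, 8 of 9 in CD8+ cDC against pre-cDC, 12 of 12 in CD8+ cDC against neutrophils, 13 of 16 in CDP against GMP, 11 of 12 in pre-cDC against CDP and 6 of 8 in IRF8KO against WT GMP. The probes that went the other way belonged to Rab10, Rab43, Rab5b, Rab8a and Rab8b. Rab43 had a second, dimmer probe that differed by -0.0086 between CDP and GMP, where the brightest rose by 0.95.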

How the data were processed

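Single-colour scanner output of 14 arrays was used. Intensity values were processed by the authors with Agilent Feature Extraction 10.7.3.1, per the file headers. The deposited value table holds linear values whose columns share 1 set of sorted values (median 46.0), so it was quantile normalized, and no source used here gives its further processing. From the scanner files, control and outlier spots were left out, log2 processed signals were averaged per probe, and each array's 75th percentile over probes was subtracted. Whether that percentile is taken over probes or spots was not fixed in advance: both were computed, probes were kept with both results known because the spots are averaged first, and the spot version is given as an alternative. Probes were named through RefSeq accessions (GRCm38.p6, names only; 26762 of 55681 probes had 1 symbol and 28919 none), and a gene is its brightest probe. Tests used limma 3.58.1 in R 4.3.3 (lmFit, eBayes, two-sided) on 12 arrays, with Benjamini-Hochberg adjustment over genes that both arrays of 1 or both compared groups detected (well above background), called under 0.05. An "at least" fold sets the bright group's mean against the lowest signal well above background. Genes named are called members, those changed at least 2-fold first, a fixed set of Rab genes, and up to 3 called regulators per list and direction. The members and lists were chosen with earlier results of these data known. The fit was tested on simulated data. The number of arrays limits the precision.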

Additional observations from a re-analysis of the deposited data

How the results depend on the processing

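Counts of called Rab genes stayed within 1.5 times the main count under every alternative run. Leaving out 1 array at a time gave 9 to 10 calls in IRF8KO against WT GMP, 31 to 35 in CDP against GMP, 27 to 29 in pre-cDC against CDP, 32 to 36 in CD8+ cDC against pre-cDC, 41 to 43 in Neu against GMP and 42 to 43 in CD8+ cDC against Neu. A replicate block gave 10, 36, 28, 37, 44 and 43 calls in the same order, but the labels do not say whether the replicate numbers pair the samples. Deviations of same-numbered arrays correlated at -0.062 to 0.025, so no strong shared deviation was seen. With 2 arrays per group this cannot exclude a shared animal or day. The 75th percentile over spots, an alternative chosen after seeing the data as were normexp and a fit on detected genes, gave 12, 37, 28, 37, 42 and 44. Over single called genes, 3216 values kept direction and call, 185 lost the call and 40 changed sign. The changes of sign, as log2 differences, were these, and their cause was not tested. Normexp turned Rab17 (0.60), Rab1b (-0.078), Rab20 (0.45), Rab2b (-0.091), Rab33a (0.38), Rab35 (-0.041), Rab40b (0.37), Rab6a (-0.15), Rab8a (-0.016) and Rab9 (-0.059) in CDP against GMP. The percentile over detected probes turned Rab19 (-0.0014), Rab2b (-0.20), Rab6a (-0.044) and Rab9 (-0.20) in CDP against GMP. Quantile normalization turned Rab1b (-0.019) and Rab9 (-0.17) in CDP against GMP. The authors' deposited table turned Rab1b (-0.022) and Rab9 (-0.17) in CDP against GMP. Quantile normalization turned Rab11a (0.10), Rab1b (0.40) and Rab5a (0.16) in pre-cDC against CDP. The percentile over detected probes turned Rab11a (0.22), Rab1b (0.36) and Rab5a (0.27) in pre-cDC against CDP. The authors' deposited table turned Rab11a (0.14) and Rab1b (0.42) in pre-cDC against CDP. Normexp turned Rab1b (0.12) in pre-cDC against CDP. Array medians turned Rab33b (-0.22) and Rab4b (-0.020) in pre-cDC against CDP. The mean over probes turned Rab5b (0.013) in pre-cDC against CDP. Array medians turned Rab40c (0.0066) in CD8+ cDC against pre-cDC. Normexp turned Rab42 (-0.058) in CD8+ cDC against pre-cDC. The mean over probes turned Rab10 (0.29) in Neu against GMP. Array medians turned Rab12 (-0.21) in Neu against GMP. The percentile over detected probes turned Rab12 (-0.036) in Neu against GMP. Normexp turned Rab42 (0.31) in Neu against GMP. Quantile normalization turned Rab32 (0.0077) in CD8+ cDC against Neu. The authors' deposited table turned Rab32 (0.0067) in CD8+ cDC against Neu. Normexp turned Rab42 (-0.10) and Rab4a (-0.018) in CD8+ cDC against Neu. The median difference of CD4+ from CD8+ cDC over all 57 genes was -1.22 on each array's own percentile, -0.13 on the shared probes and 0.28 in the authors' deposited table. The array files hold no gene symbols, so the alternative that uses them was not run. Each group has 2 arrays, and dim probes have only a bound.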
